A study of Mus musculus with 2 samples.

Results

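Hypothalamic neurons are told apart during development by the transcription factors they express. A set of 32 genes for such factors was described here in single cells of the mouse arcuate nucleus and median eminence, out of 20210 genes in the table that holds both libraries. They were listed by name as known regulators of hypothalamic neuron identity, with earlier results of these data known. Single-cell RNA was read from cells sorted for the red reporter tdTomato at postnatal day 10, with the series title naming Irx3, Irx5, postnatal neurogenesis and leptin sensitivity as the subject. Control mice carried Ins2-Cre and the tdTomato reporter. The dHet mice carried the same alleles and were also heterozygous for both Irx3 and Irx5. All were of the CD-1 strain, and each genotype was 1 pool of 5 mice and 1 library. The reporter marks only cells in which the Ins2 promoter drove Cre at some time, so other cells of the region are missing by design, and the heterozygous alleles are not tied to the Cre by the labels.

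Homeodomain, T-box, nuclear receptor, forkhead, zinc-finger and basic helix-loop-helix factors act in combinations, and a neuron's peptide and transmitter genes are read out from the combination it holds. In the arcuate nucleus such factors separate the neurons that make Agrp and Npy, which drive feeding, from those that make Pomc, which curb it, and from the neuroendocrine neurons that make Ghrh, Sst or dopamine. Neighbouring nuclei, such as the ventromedial, suprachiasmatic and mammillary nuclei, are each known for factors of their own.

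The control library held 3479 cells with 63100794 UMIs (unique molecular identifiers, 1 per captured transcript) and the dHet library 3939 cells with 71827597 UMIs, with medians of 16508 and 17175 UMIs per cell. The libraries shared 4 cell barcodes. After 44 called doublets were removed, 7374 cells were clustered without using any of the 32 genes. Of 33 clusters, 21 were neuron-like (2248 control and 2900 dHet cells, with medians of 22852 and 21284 UMIs). Noncoding genes that overlap or neighbour some of the 32, such as Lhx1os beside Lhx1, were not taken out. The clusters may thus not be independent of those factors. Clusters are called here by their leading genes. Marker lists without any of the 32 genes gave a type name to 10 of them, among which were Agrp/Npy, Pomc, Kiss1/Tac2, Trh and Ghrh/Gal/Th neurons of the arcuate nucleus, but also Ventromedial-like, Suprachiasmatic-like and Mammillary-like clusters of neighbouring nuclei. Irx3 had 9 UMIs in control and 2 in dHet neuron-like cells, and Irx5 had 13 and 2. These 3′ tags cannot show which part of an allele was deleted, so they are a weak check of the labels.

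All 32 factors were detected, and neurons were the main source of most. Levels are CPM, the UMIs of a gene per 1000000 UMIs of the cells named. They count 3′ ends and do not grow with transcript length. Neuron-like cells held most of all UMIs, 52940565 of 62594243 in control and 63362636 of 71295165 in dHet. A gene spread evenly over all RNA would thus also have a high share in them. At least 95% of a factor's UMIs lay in neuron-like cells for 21 factors and 80% to 95% for 8. For 3 factors the share was under 80%. Meis2, a homeodomain factor of the TALE class, had 28.2% of its UMIs in neuron-like cells, Nr2f1 had 37.3% and Foxb1 73.5%. For 12 factors another cell class exceeded the neuron-like cells in CPM. Six3, a regulator of forebrain and eye development, stood at 723 CPM in tanycyte-like cells against 297 CPM in neuron-like cells. Nr2f1, the nuclear receptor COUP-TFI, stood at 271 CPM in astrocyte-like cells against 10.9 CPM in neuron-like cells. Isl1, a LIM homeodomain factor of many peptide neurons, stood at 355 CPM in the 41 pars tuberalis-like or pituitary-like cells and at 223 CPM in neuron-like cells. Other factors were almost silent outside neurons: Hmx2 and Nr5a1 had 0 UMIs in both astrocyte-like and tanycyte-like cells. Free RNA in the droplets can give UMIs in cells that do not express a gene, and its share was not estimated. Otp had a UMI in 25.9% of neuron-like cells, against 1.71% of astrocyte-like cells, 1.94% of tanycyte-like cells and 7.04% of cycling cells. These glial classes are shallower, with medians of 6183 UMIs per cell for the astrocyte-like cluster and 8684.5 for the larger tanycyte-like cluster. After thinning every cell to 4000 UMIs the Otp shares were 19.4% (exact binomial 95% interval 18.3 to 20.5) in neuron-like, 1.38% (0.631 to 2.60) in astrocyte-like, 0.814% (0.265 to 1.89) in tanycyte-like and 6.45% (1.79 to 15.7) in the 62 cycling cells. Binomial, Poisson and ratio intervals throughout are at 95% and cover counting error only.

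A cluster was said to hold a factor where at least 25% of its cells had a UMI and its CPM was at least 2 times that of all other neuron-like cells. By this rule 29 of the 32 factors were held by at least 1 cluster, as were 16% of all 14489 genes tested. All 21 clusters held at least 1 factor, between 1 and 8 each with a median of 5, and no pair of clusters held the same set. Of 95 holding pairs of factor and cluster, 86 met the rule in each library alone. Foxb1 was held by 1 cluster, 23 factors by 2 to 4 clusters, and Bsx, Hmx2, Six6, Lhx1 and Bcl11a by 5 or more. The heat map of factors by clusters shows this pattern.

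**Figure D1:**
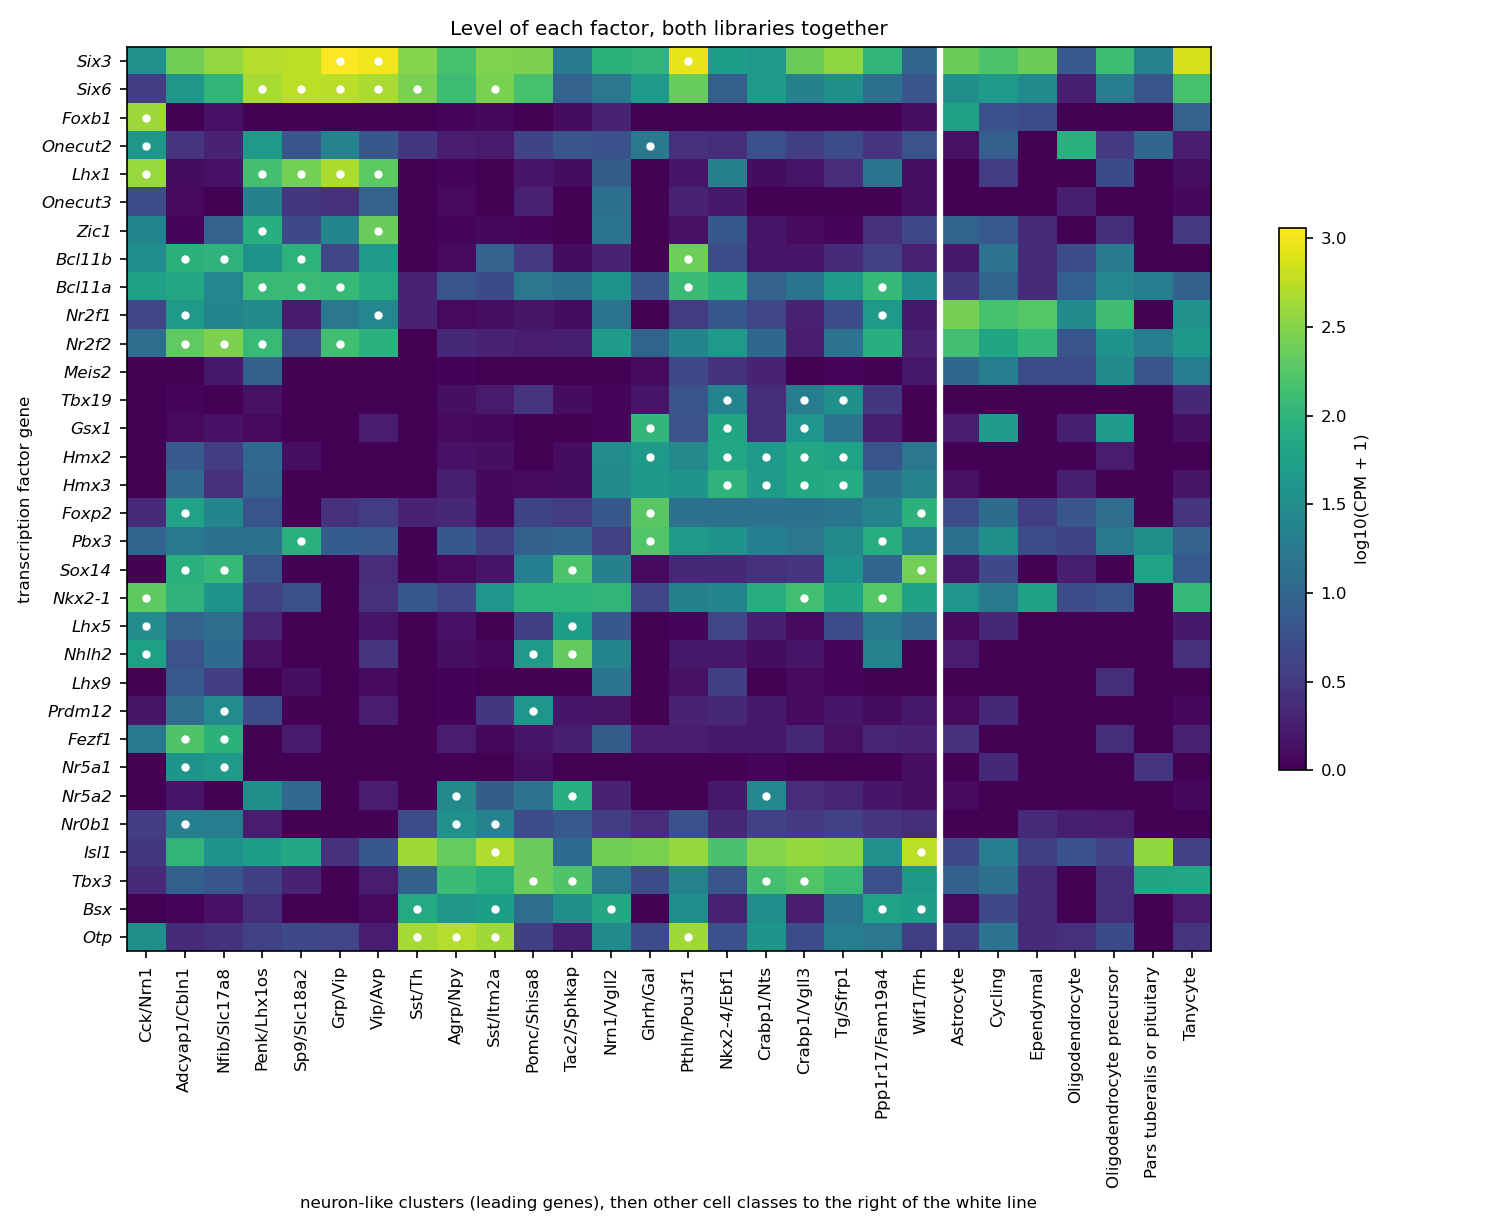
Level of each of the 32 factors (rows) in the 21 neuron-like clusters and, right of the white line, in other cell classes, as log10(CPM + 1) over both libraries together, with white dots where a cluster holds the factor. Foxb1 has a single dot, in Cck/Nrn1, while Six3, Nr2f1 and Nr2f2 are also bright in glial classes.

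Among factors known from arcuate peptide neurons, Isl1 was highest in the Trh-like cluster Wif1/Trh, at 580 CPM in control and 558 CPM in dHet cells, and in Sst/Itm2a, at 498 and 492 CPM. It was found in 64.3% of all neuron-like cells. Otp, a homeodomain factor needed by several neuroendocrine lineages, reached 496 and 547 CPM in Agrp/Npy cells, which held 51.2% of its neuron-like UMIs. It was also held by Sst/Itm2a, Sst/Th and Pthlh/Pou3f1, at 388 to 473 CPM over these clusters and both libraries. In each of these 4 clusters at least 88.5% of cells had an Otp UMI in either library. Bsx, a homeobox gene linked to feeding, was spread over Sst/Th, Nrn1/Vgll2, Ppp1r17/Fam19a4, Sst/Itm2a and Wif1/Trh at 49.97 to 73.9 CPM. Sst/Th is small, with 10 control and 20 dHet cells. Nrn1/Vgll2 cells held no other factor of the set. Agrp/Npy, the largest neuron-like cluster, did not hold Bsx by the rule but had the largest share of its neuron-like UMIs, 22.2%. Tbx3, a T-box factor of melanocortin neurons, was highest in the Pomc-like cluster at 221 and 235 CPM, and Kiss1/Tac2-like cells of Tac2/Sphkap had 172 and 155 CPM. Crabp1/Vgll3, second at 174 CPM over both libraries, and Crabp1/Nts also held Tbx3, while Agrp/Npy did not. Prdm12, a zinc-finger protein needed for Pomc expression, was at 32.2 and 44.3 CPM in the Pomc-like cluster, which held 51.6% of its neuron-like UMIs. Nhlh2, a basic helix-loop-helix factor tied to energy balance, was at 43.3 and 45.3 CPM there and at 220 and 193 CPM in Tac2/Sphkap. The latter also held Sox14 at 160 and 151 CPM and Lhx5 at 48.8 and 49.1 CPM.

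Nuclear receptors split along other lines. Nr5a1, known as SF-1 and required for the ventromedial nucleus, was held by the Ventromedial-like cluster Adcyap1/Cbln1 (32.8 CPM in control, 39.9 CPM in dHet) and by Nfib/Slc17a8 (45.0 and 43.2 CPM), which together had nearly all of its UMIs (64.4% and 34.8%). Its paralog Nr5a2, known as LRH-1, was held by neither and stood at 89.9 and 74.8 CPM in Tac2/Sphkap, at 23.8 and 28.6 CPM in Agrp/Npy and at 26.2 and 24.4 CPM in Crabp1/Nts. Penk/Lhx1os did not hold Nr5a2 by the rule but was second in level, at 32.3 CPM over both libraries. No neuron-like cell of either library had a UMI of both Nr5a1 and Nr5a2 after thinning to 8000 UMIs, where 4.15 control and 5.77 dHet cells were expected. A count of 0 allows up to 3 cells per library. Nr0b1, known as DAX-1, is a corepressor of Nr5a1. It was held by Adcyap1/Cbln1 at 19.3 and 20.8 CPM, but its level was higher in Agrp/Npy cells (48.6 CPM in control and 26.8 CPM in dHet), where Nr5a1 was not held. Fezf1, a zinc-finger factor of the ventromedial nucleus, followed Nr5a1 with 185 and 147 CPM in Adcyap1/Cbln1 and 107 and 77.5 CPM in Nfib/Slc17a8. Nr2f2, or COUP-TFII, was at 225 and 194 CPM and at 298 and 269 CPM in the same clusters, and it was also held by Penk/Lhx1os and the Suprachiasmatic-like Grp/Vip. Nr2f1 was held by Adcyap1/Cbln1, Ppp1r17/Fam19a4 and Vip/Avp at 24.9 to 48.9 CPM.

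Hmx2 and Hmx3 are adjacent homeobox genes that, with Gsx1, are known to be needed for Ghrh neurons. On chromosome 7 of GRCm38 the start of Hmx2 lies 3848 bases after the end of Hmx3, both on the plus strand. Hmx2 was held by Crabp1/Vgll3 (67.8 CPM in control, 71.6 CPM in dHet), Nkx2-4/Ebf1 (69.1 and 65.4 CPM), Tg/Sfrp1 (52.2 and 63.4 CPM), Crabp1/Nts (48.0 and 40.1 CPM) and the Ghrh/Gal cluster (40.6 and 44.2 CPM). Hmx3 was held by the first 4 of these, up to 88.4 and 102 CPM in Nkx2-4/Ebf1. Across the 21 clusters the CPM of Hmx2 and Hmx3 had nearly the same order (Spearman's rho 0.959, the highest of any factor and its nearest match). The clusters share libraries and differ in depth, so this is a description. Both genes lie opposite the annotated gene Fgfr2, and no source used here says whether strand was used in counting. Such an opposite-strand neighbour is annotated for 15 of the 32 factors. The promoters of this neighbouring pair are shown because the genes share cells. They run from 250 bases before to 50 bases after the RefSeq start on the plus strand of GRCm38.p6, at chr7:131542713-131543012 for Hmx3 and chr7:131548507-131548806 for the first start of Hmx2. Capitals mark the nuclear receptor motif AGGTCA where a search of either strand found it.
Hmx3: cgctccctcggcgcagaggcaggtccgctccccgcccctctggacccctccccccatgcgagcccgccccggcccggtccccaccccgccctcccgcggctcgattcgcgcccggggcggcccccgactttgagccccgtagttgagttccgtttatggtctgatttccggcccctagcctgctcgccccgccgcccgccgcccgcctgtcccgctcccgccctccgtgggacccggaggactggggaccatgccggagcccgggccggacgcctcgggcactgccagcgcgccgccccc
Hmx2: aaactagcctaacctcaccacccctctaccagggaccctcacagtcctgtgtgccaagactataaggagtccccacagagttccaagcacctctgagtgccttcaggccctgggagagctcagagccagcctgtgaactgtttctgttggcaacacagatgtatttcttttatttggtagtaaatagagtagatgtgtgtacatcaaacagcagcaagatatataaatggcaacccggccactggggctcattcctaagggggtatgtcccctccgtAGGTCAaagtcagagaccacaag
The motif was found in this Hmx2 window, but not in the Hmx3 window or in that of the second Hmx2 start. Of 32851 promoters of this length, 16.3% hold it on either strand. Promoters were matched for 24 of the 32 genes, with 27 windows in all. This motif was in at least 1 window of Hmx2, Nkx2-1, Nr0b1 and Nr5a2. The motif CAAGTG, which NK and HMX factors can bind, was in at least 1 window of Gsx1 and of Nr5a2 (13.6% of all promoters). The homeodomain motif TAATTA was in that of Tbx19 (5.29%), and the motif CAAGGTCA of Nr5a factors, which contains AGGTCA, in none (1.56%).

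Gsx1 was highest in Ghrh/Gal cells, at 108 CPM in control and 101 CPM in dHet, where 81.4% (70.3 to 89.7) and 82.9% (74.3 to 89.5) of cells had a UMI, and it was held together with Hmx2 and Hmx3 in Nkx2-4/Ebf1 and Crabp1/Vgll3. It had 44.4 CPM in oligodendrocyte precursor-like cells and 47.2 CPM in cycling cells. Foxp2, a forkhead factor, and Pbx3, a TALE cofactor, were both highest in Ghrh/Gal cells: Foxp2 at 209 and 177 CPM and Pbx3 at 191 and 152 CPM. Foxp2 was also held by Wif1/Trh (89.2 and 94.7 CPM) and Adcyap1/Cbln1 (48.1 and 63.6 CPM). Tbx19, a T-box factor known from pituitary corticotrophs, was held by Tg/Sfrp1 at 33.9 and 33.0 CPM, with 53.2% of its neuron-like UMIs, and at lower levels by Nkx2-4/Ebf1 and Crabp1/Vgll3. Sox14, an HMG-box factor, was highest in Wif1/Trh at 273 and 232 CPM. Nkx2-1, which patterns the ventral hypothalamus, was held by Cck/Nrn1 (217 and 188 CPM), Ppp1r17/Fam19a4 (187 and 169 CPM) and Crabp1/Vgll3 (136 and 132 CPM).

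Foxb1, a forkhead factor of the mammillary region and the one factor held by a single cluster, had 98.6% of its neuron-like UMIs in the Mammillary-like cluster Cck/Nrn1, at 426 CPM in the 22 control cells and 405 CPM in the 56 dHet cells. Lhx1, a LIM homeodomain factor of suprachiasmatic and mammillary neurons, was at 328 and 411 CPM in the same cluster. It was at 439 and 522 CPM in the Suprachiasmatic-like Grp/Vip, a small cluster of 20 control and 31 dHet cells. Lhx1 was also at 288 and 241 CPM in Sp9/Slc18a2, at 173 and 207 CPM in Vip/Avp and at 158 and 128 CPM in Penk/Lhx1os. The label gene Lhx1os of the last cluster is the noncoding neighbour of Lhx1. Zic1, a zinc-finger factor, was at 266 and 202 CPM in the Suprachiasmatic-like Vip/Avp, where 88.6% (82.0 to 93.5) of control and 84.1% (77.9 to 89.1) of dHet cells had a UMI. Six3 and Six6, homeobox paralogs, were both held by Vip/Avp and Grp/Vip. Six3 reached 1128 and 1160 CPM in Grp/Vip and Six6 566 and 541 CPM, while the highest Six6 was in Sp9/Slc18a2 at 597 and 551 CPM. Bcl11b, or CTIP2, was highest in Pthlh/Pou3f1 at 258 and 215 CPM, and its paralog Bcl11a was spread over 5 clusters at 100 to 130 CPM. Onecut2 was held by Cck/Nrn1 (32.8 and 44.5 CPM) and Ghrh/Gal (14.1 and 18.5 CPM). Its highest level over both libraries, 44.1 CPM, was in Penk/Lhx1os, with 33.8% of its neuron-like UMIs. That cluster missed the rule, as 23.0% of its cells had a UMI. No cluster held Lhx9, a LIM homeodomain factor known from orexin neurons, or Onecut3 or Meis2. These 3 had 202, 268 and 93 UMIs in all neuron-like cells. Of the Lhx9 UMIs, 51.0% were in Nrn1/Vgll2.

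Some factors met in the same cells more often, and others less often, than their separate shares give. Each cell was thinned to 8000 UMIs, which left 2068 control and 2695 dHet neuron-like cells. A pair of factors was counted as sharing cells where the number of cells with both was at least 2 times that expected from their separate shares in both libraries, and as avoiding where it was at most 0.5 times. Of 496 pairs, 352 had at least 5 expected cells in each library. Of these 25 shared (7.10%) and 99 avoided (28.1%), while pairs of the other hypothalamic transcription factors shared in 5.83% and avoided in 4.75%. The sharing count is near that background and the avoiding count is above it. For 317 of the 352 pairs both libraries were on the same side of 1.

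The highest sharing was of Lhx5 with Nhlh2, found together in 37 control cells against 7.01 expected (5.28 times) and in 31 dHet cells against 6.85 (4.52 times). Fezf1 and Nr2f2 were found together at 4.19 and 4.28 times the expected number, and Lhx1 and Zic1 at 4.04 and 3.94 times. Nr2f1 with Nr2f2 came to 3.97 and 4.40 times, from 92 control cells against 23.2 expected and 106 dHet cells against 24.1. For Hmx2 with Hmx3 the values were 3.73 and 4.24 times, from 113 and 142 cells, and 49.6% of control and 51.1% of dHet cells with Hmx2 also had Hmx3. Without thinning the pair was at 3.61 and 4.05 times. Gsx1 shared with Hmx2, Hmx3, Foxp2 and Pbx3, at 2.41 to 3.94 times. Nr5a1 shared with Nr2f2, Sox14 and Bcl11b, at 3.36 to 3.88 times. Of the 10 paralog pairs in the set, 6 had enough expected cells, and Hmx2 with Hmx3 and Nr2f1 with Nr2f2 were the sharing ones. Six3 with Six6 stood at 1.56 and 1.49 times, Bcl11a with Bcl11b at 1.85 and 2.06 times, Tbx3 with Tbx19 at 1.73 and 2.04 times, and Lhx1 with Lhx5 at 0.919 and 0.897 times.

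Taken within clusters, most sharing pairs were near the expected number. With that number summed within clusters, the median of the 25 pairs was 1.12 times in control and 1.11 times in dHet. None reached 2 times in both libraries and 21 were under 1.5 times in both. Within a cluster this ratio cannot exceed the inverse of the share of cells with the commoner factor. A factor found in most cells of a cluster, such as Nhlh2 in 88.3% of Tac2/Sphkap cells before thinning, thus leaves it little room to rise. Nr2f1 with Nr2f2 kept 1.73 and 1.82 times, and Hmx2 with Hmx3 kept 1.62 and 1.51 times. Among the avoiding pairs with many expected cells were several with Tbx3 or Lhx1. Tbx3 and Nr2f2 met in 7 control cells where 105 were expected, and in 12 dHet cells where 138 were expected. Tbx3 and Lhx1 met in 2 cells of each library, against 68.8 and 97.9 expected. Isl1 and Lhx1 met in 22 and 35 cells against 129 and 174. Otp and Sox14 met in 8 and 5 cells against 70.0 and 91.0. Within clusters Tbx3 with Nr2f2 stayed low, at 0.293 and 0.358 times, and 27 of the 99 avoiding pairs were still at most 0.5 times in both libraries, some from few expected cells. Zic1 was in 16 avoiding pairs and Lhx1 in 14. In sparse counts a factor is missed in many cells that make it, so these numbers compare pairs and are not shares of cells that express both.

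**Figure D2:**
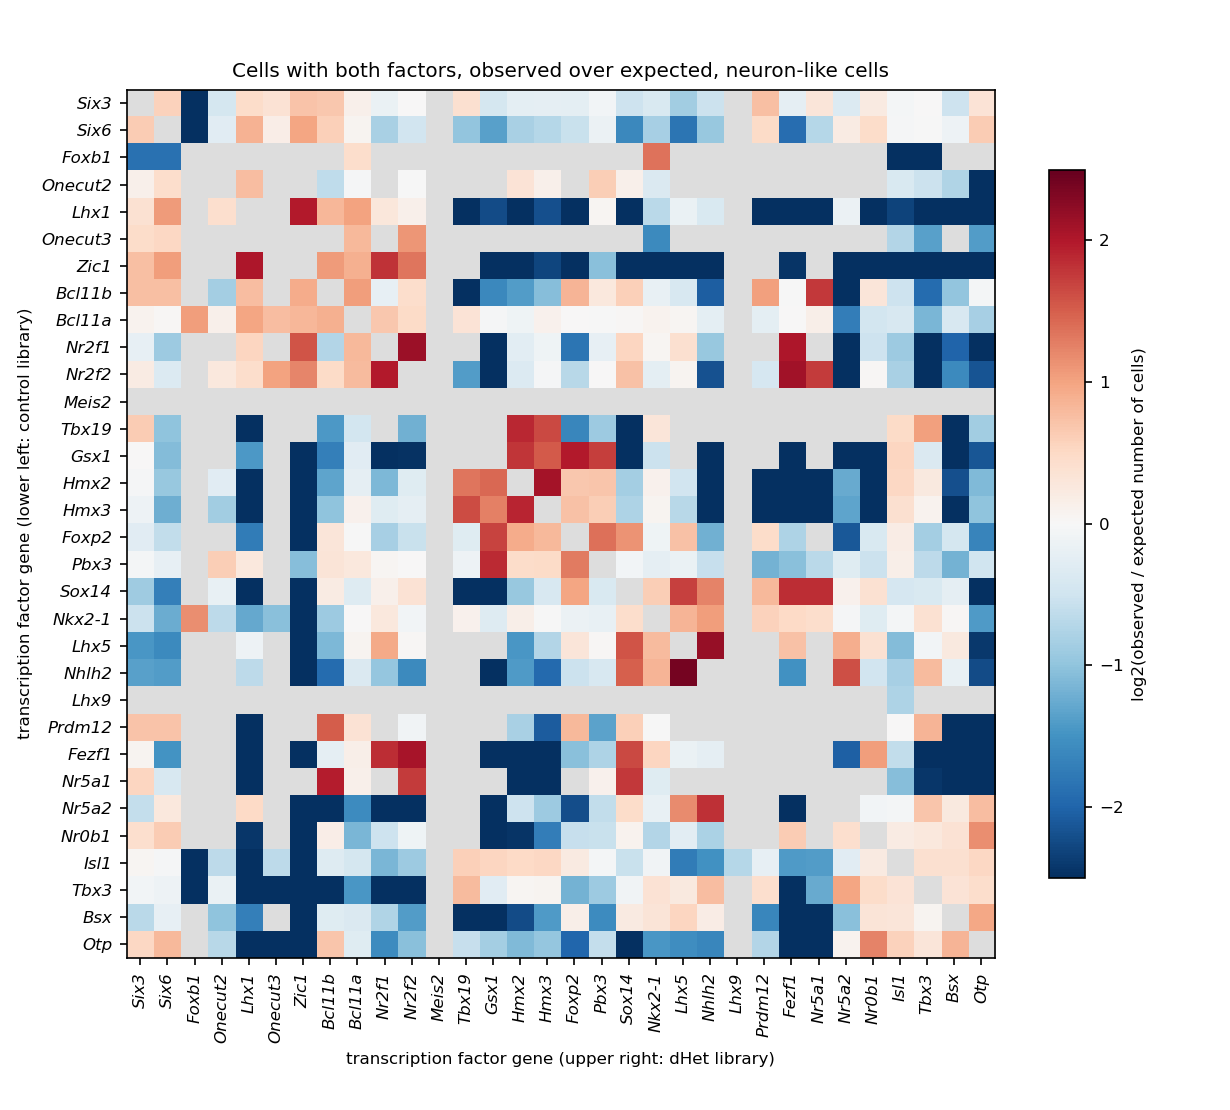
Cells with a UMI of both factors over the number expected, on a log2 scale, in neuron-like cells thinned to 8000 UMIs. The lower left triangle is the control library and the upper right the dHet library, grey marks pairs with under 5 expected cells in a library, and the dark blue rows of Zic1 and Lhx1 appear in both triangles.

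In the comparison of dHet with control, most factors were at similar levels over all neuron-like cells. With 1 library per genotype there is no replicate and no test. A factor was called where the CPM ratio of dHet over control was at least 1.5 or at most 1/1.5, with at least 50 UMIs, and 95% intervals cover counting error only. Genotype, the pool of mice and its mix of sexes, dissection and sort cannot be told apart. Of the 32 factors, 3 were called higher (Meis2, Onecut2 and Foxb1), against 2.21% of all genes tested, and 1 was called lower (Lhx9), against 2.09%. The median ratio of the factors was 0.901, and that of all 14489 genes was 0.978. Because clusters differ in size between the libraries, the ratio was also taken with the cluster mix held fixed, over 20 clusters with at least 20 cells in each library. Then Meis2 and Onecut2 were called higher, against 1.99% of all genes, and Lhx9 and Nr0b1 lower, against 1.98%. The median moved to 0.961, and 24 of the 32 factors came nearer to 1.

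**Figure D3:**
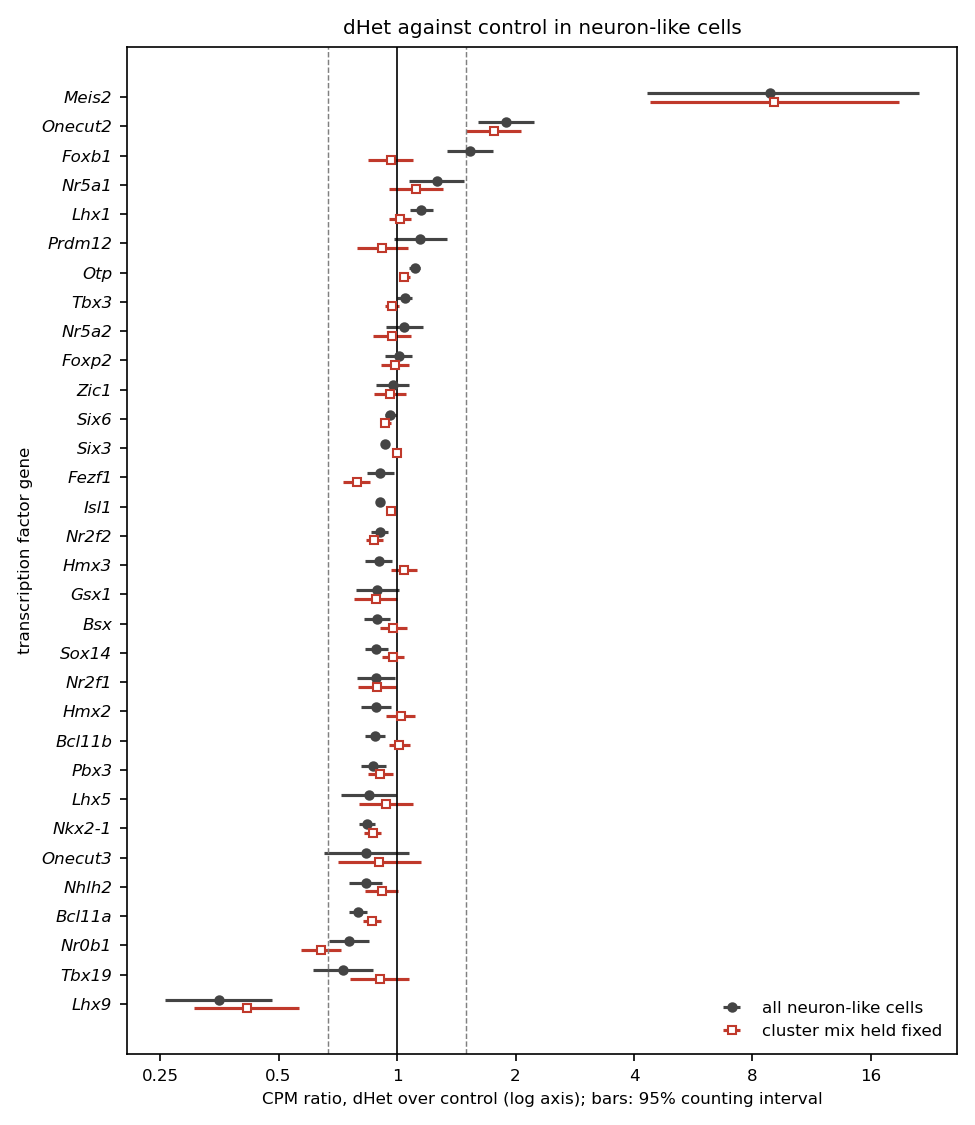
CPM ratio of dHet over control (log axis) for each factor in all neuron-like cells (grey circles) and with the cluster mix held fixed (red squares), with bars for the 95% counting interval and dashed lines at 1.5-fold. Foxb1 moves from 1.53 to 0.963 when the mix is held fixed, and Nr0b1 from 0.755 to 0.640.

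Onecut2, a homeobox factor of the CUT class, had 216 UMIs in control and 488 in dHet neuron-like cells (4.08 and 7.70 CPM), a ratio of 1.89 (1.60 to 2.23), and 1.76 (1.497 to 2.07) with the mix held fixed. A UMI was found in 5.56% (4.65 to 6.59) of control and 8.07% (7.10 to 9.12) of dHet cells. Without the 5 cells that held most of its UMIs the ratio was 1.75. Its highest cluster was Cck/Nrn1 in control and Penk/Lhx1os in dHet, at 32.8 and 55.0 CPM. After thinning to 8000 UMIs the ratio with the mix held fixed was 1.33, under the threshold. Its paralog Onecut3 had 134 UMIs in each library and a ratio of 0.836 (0.653 to 1.07).

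Foxb1 had 6.46 CPM in control and 9.91 CPM in dHet neuron-like cells, a ratio of 1.53 (1.34 to 1.75). The cluster that held it had 22 of 2248 control and 56 of 2900 dHet cells, and with the mix held fixed the ratio was 0.963 (0.844 to 1.10). Meis2 had 8 UMIs in control and 85 in dHet neuron-like cells, a ratio of 8.88 (4.31 to 21.2). However, 84.9% of all 93 UMIs were in 5 cells, and without them 14 UMIs were left at a ratio of 0.628. Lhx9 had 142 UMIs in control and 60 in dHet cells, at 2.68 and 0.947 CPM and a ratio of 0.353 (0.257 to 0.481), and 0.415 (0.306 to 0.563) with the mix held fixed. Of its UMIs 33.2% were in 5 cells, and without them the ratio was 0.460, or 0.530 with the mix held fixed. It was found in 1.16% (0.757 to 1.69) of control and 0.448% (0.239 to 0.765) of dHet cells.

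The other factors stayed under 1.5-fold in both ways of counting, with Nr0b1 the exception taken up next. Isl1 was at 235 CPM in control and 213 CPM in dHet (ratio 0.906), Otp at 124 and 138 CPM (1.11), Six3 at 308 and 287 CPM (0.932), Tbx3 at 71.1 and 74.3 CPM (1.05), and Nkx2-1 at 64.0 and 53.6 CPM (0.837). With the mix held fixed these 5 were at 0.966, 1.04, 0.999, 0.971 and 0.867. Fezf1 moved away from 1, from 0.907 (0.836 to 0.984) to 0.790 (0.729 to 0.856). Tbx19 moved towards it, from 0.730 (0.613 to 0.868) to 0.903 (0.761 to 1.07). Counting intervals lay above 1 for 7 factors, below 1 for 19 and took in 1 for 6. With the mix held fixed they lay above 1 for 3, below 1 for 10 and took in 1 for 19. Intervals of deeply counted factors leave out 1 at small differences, as that of Isl1 does at 0.906 (0.884 to 0.929). The same counts over all genes are not given here, so these counts cannot be read as a trait of the set.

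Nr0b1 was called lower in dHet cells with the mix held fixed and in 3 of the 4 clusters where it had at least 50 UMIs: Agrp/Npy and Sst/Itm2a, which hold it, and Nfib/Slc17a8, which does not. Over all neuron-like cells it had 616 UMIs in control and 557 in dHet (11.6 and 8.79 CPM), a ratio of 0.755 (0.673 to 0.849). With the mix held fixed the ratio was 0.640 (0.570 to 0.719). In Agrp/Npy cells, which held 43.9% of its neuron-like UMIs, there were 263 UMIs in 187 control cells and 252 UMIs in 364 dHet cells. That is 48.6 CPM (exact Poisson interval 42.9 to 54.8) against 26.8 CPM (23.6 to 30.3), a ratio of 0.552 (0.463 to 0.659). A UMI was found in 52.4% (45.0 to 59.7) of control and 35.4% (30.5 to 40.6) of dHet cells of this cluster. Without the 5 cells with most UMIs the ratio was 0.602. Sst/Itm2a cells had 26.0 and 16.9 CPM, a ratio of 0.649 (0.445 to 0.939), which was 0.841 without 5 cells. Nfib/Slc17a8 cells had 27.8 and 11.3 CPM from 63 and 31 UMIs, the lowest of the 4 ratios at 0.408 (0.257 to 0.637), which was 0.599 without 5 cells and 0.409 (0.266 to 0.629) with the mix of finer clusters held fixed. In the fourth cluster, Adcyap1/Cbln1, the levels were 19.3 and 20.8 CPM, under 1.5-fold apart. Nr0b1 is X-linked, at chrX:86191764-86195947 of GRCm38, and the pools differed in sex-linked transcripts: 50.1% of control and 65.0% of dHet neuron-like cells had a UMI of Xist and none of the Y-linked genes counted. Within Agrp/Npy cells the Nr0b1 ratio was 0.564 (0.445 to 0.715) in such cells and 0.532 (0.394 to 0.718) in cells with a Y-linked UMI and no Xist. Over all neuron-like cells it was 0.651 (0.561 to 0.756) and 0.906 (0.736 to 1.11). The Nr0b1 promoter is shown as that of the factor with this difference, at chrX:86191525-86191824 on the plus strand of GRCm38.p6 per RefSeq, with the receptor motif AGGTCA in capitals.
Nr0b1: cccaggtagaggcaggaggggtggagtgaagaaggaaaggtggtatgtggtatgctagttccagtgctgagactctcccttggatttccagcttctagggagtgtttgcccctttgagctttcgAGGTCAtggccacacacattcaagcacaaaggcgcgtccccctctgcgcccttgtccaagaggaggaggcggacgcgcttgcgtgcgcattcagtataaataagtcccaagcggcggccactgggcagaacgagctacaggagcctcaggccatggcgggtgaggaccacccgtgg

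Within single clusters, most factors differed by less than 1.5-fold between the libraries where they are held. In the 18 clusters with at least 50 cells in each library, 223 pairs of factor and cluster had at least 50 UMIs. Of these 44 were called (19.7%), against 6.03% of all gene and cluster pairs. The 18 higher calls were 8.07% of the pairs, against 2.29% of all, and the 26 lower calls 11.7%, against 3.74%. Where the cluster held the factor, 5 of 81 pairs were called (6.17%), with a median ratio of 0.962, against 9.46% of all pairs of a gene and a cluster that holds it. Where it did not, 39 of 142 were called (27.5%), against 5.97% of all pairs of a gene and a cluster that does not hold it. Depth differed between these sets. The median was 483 UMIs for the 81 pairs and 290 for all held pairs, and 181 UMIs for the 142 pairs and 219 for all pairs not held. In the 39 called pairs a median of 32.6% of the UMIs came from 5 cells, in all 142 a median of 21.9% and in the 81 held pairs 10.3%. Of the 39, 13 were still called without those cells.

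Besides Nr0b1 in Agrp/Npy and Sst/Itm2a, the called pairs in holding clusters were Zic1, Bcl11b and Prdm12. Zic1 in Penk/Lhx1os was at 57.7 CPM in control and 105 CPM in dHet, a ratio of 1.82 (1.48 to 2.24), with a UMI in 30.0% (21.6 to 39.5) and 28.4% (21.4 to 36.2) of cells. Without the 5 cells with most Zic1 UMIs the ratio was 1.12. Bcl11b in Adcyap1/Cbln1 was at 70.0 and 107 CPM, a ratio of 1.53 (1.34 to 1.75), with a UMI in 34.8% (27.5 to 42.7) and 47.4% (41.1 to 53.8) of cells. Holding the mix of 3 finer clusters fixed brought it to 1.10 (0.965 to 1.26). Prdm12 in Nfib/Slc17a8 was at 41.0 and 18.6 CPM from 93 and 51 UMIs, a ratio of 0.455 (0.317 to 0.647), which was 0.750 without 5 cells. In the Pomc-like cluster it was at 32.2 and 44.3 CPM, under 1.5-fold. Of the 5 pairs, Nr0b1 in Agrp/Npy and Bcl11b in Adcyap1/Cbln1 remained past 1.5-fold without their 5 highest cells, and the first also stayed past it with finer clusters held fixed, at 0.615 (0.516 to 0.732).

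**Figure D4:**
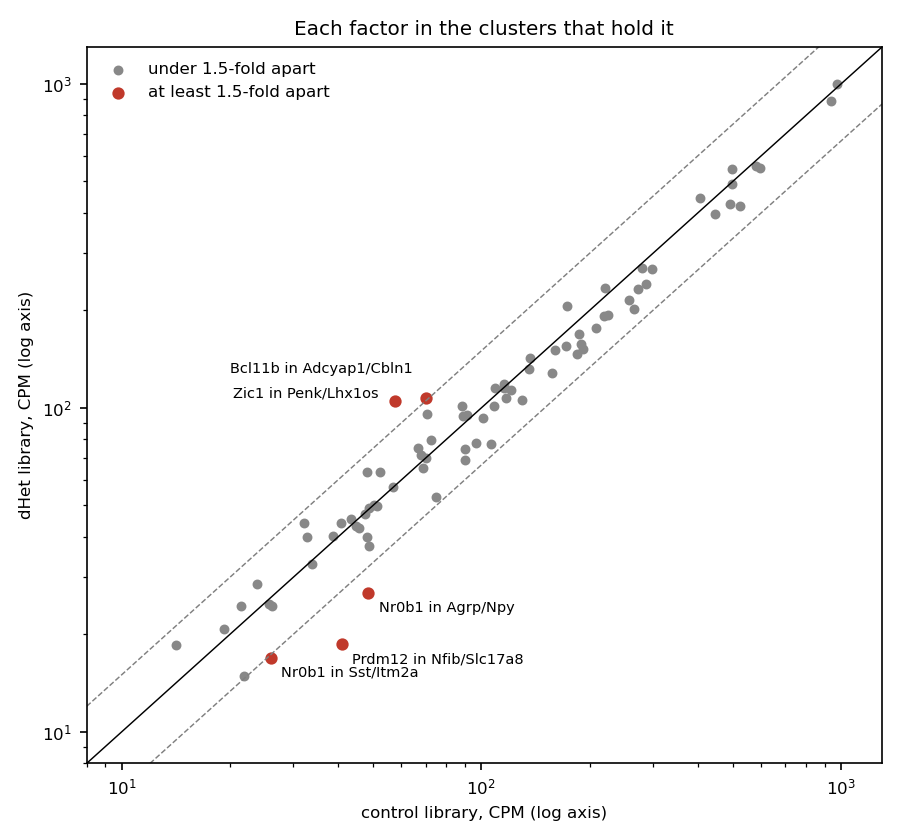
CPM of each factor in control (x axis) and dHet (y axis) in the clusters that hold it, both on log axes, for the 81 pairs with at least 50 UMIs in clusters of at least 50 cells per library. Most points lie between the dashed 1.5-fold lines, and the 5 red points outside them are labelled.

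A list of 57 other hypothalamic transcription factors was read the same way, of which 55 were in the table and 49 had at least 50 UMIs in neuron-like cells. Of these, 1 was called higher, against 2.21% of all genes tested, and 4 were called lower, against 2.09%. The lower ones were Ebf1 at 0.273, Onecut1 at 0.564, Sall3 at 0.619 and Nfia at 0.644. Of their UMIs, 38.6%, 25.4%, 36.2% and 6.68% came from 5 cells. The median ratio of the 49 was 0.944. With the mix held fixed 1 was called higher, against 1.99% of all genes, and 3 were called lower, against 1.98%.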

How the data were processed

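Cells sorted for tdTomato were profiled by 10x Genomics droplet sequencing, and the authors aligned and counted reads with Cell Ranger, version 3.0.2 per the file headers, on build mm10 as the submitters' processing notes give it. The deposited files hold raw UMI counts per gene and cell: 2 matrices and 1 merged table of 20210 genes, which was used here. For the 32 genes no value of the merged table differed from the matrices. The table holds a subset of the matrices' barcodes, and no source used here states its filter. Its cells had at most 7501 genes in control and 7495 in dHet, and at most 19.9% mitochondrial UMIs in both. Left out were 215 of 3694 control and 339 of 4278 dHet barcodes. Of these, 141 and 83 had gene numbers at or above those maxima, and 74 and 256 had at least 20% mitochondrial UMIs.

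Scrublet in scanpy 1.11.5 (expected rate 4%) removed 23 control (0.661%) and 21 dHet (0.533%) cells. Counts were scaled to 10000 per cell, and 2000 variable genes, 30 principal components, 15 neighbours and Leiden resolution 1 were used, without the 32 genes, Irx3 and Irx5 and without genes that are sex-linked, mitochondrial or code for haemoglobin or ribosomal proteins. Names came from marker lists, by a naming rule set after the clusters were seen: at least 3 markers in 25% of the cells, and for neuron types a marker among the 3 leading genes. Ratios of CPM have exact conditional binomial intervals, those with the mix held fixed a Poisson delta-method interval, and shares exact Clopper-Pearson intervals, all at 95% and for counting error only. The scripts were tested on simulated data.

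The factors and lists were chosen with earlier results of these data known. All 32 may be named, with up to 4 other genes per list by size of ratio. Some genes are not reported here, and cluster labels pass over them to the next leading gene. Promoters came from RefSeq and gene positions from GENCODE M21. Alternatives covered the choice of cells, doublets, UMI minimum, scaling, thinning, clustering resolution and leaving out the 5 cells with most UMIs of a gene, the last added after seeing the data. An alternative that left out neuron-like clusters led by another class's markers could not be run, since none was.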

Additional observations from a re-analysis of the deposited data

Results flagged for a closer look

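For 7 factors the dHet level was at least 1.5-fold higher than control in 1 neuron-like cluster and at least 1.5-fold lower in another, with counting intervals that leave out 1. An eighth, Bcl11a, was called both ways, but the interval of its higher ratio took in 1 (1.57, 0.912 to 2.77, in Crabp1/Nts). These 7 had 19 called ratios, and the highest and lowest of each factor follow, 14 in all. The difference between clusters was not tested, since each genotype has 1 library, and 13 of the 14 lie in clusters that do not hold the factor. Without the 5 cells with most UMIs of the factor, 5 of the 14 were still at least 1.5-fold in the same direction, 5 were under 1.5-fold and 4 were on the other side of 1. Six6 alone remained past 1.5-fold both ways. How many of all genes were called both ways over these clusters is not given here, so the 7 cannot be read as a trait of the set.

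Six6 was at 1.64 in Adcyap1/Cbln1 (132 and 312 UMIs), or 1.57 without 5 cells, and at 0.354 in Ghrh/Gal (117 and 58 UMIs), or 0.520 without 5 cells. In Adcyap1/Cbln1 it was 1.17 (0.956 to 1.44) with the mix of finer clusters held fixed. Otp had a ratio of 3.91 in Crabp1/Nts (47 control and 246 dHet UMIs), or 7.58 without 5 cells. Its ratio of 0.110 in Ppp1r17/Fam19a4 (52 and 5 UMIs, 82.5% in 5 cells) became 1.08, with 10 UMIs left. Six3 was at 1.70 in Crabp1/Nts (107 and 243 UMIs) and at 0.587 in Ghrh/Gal (223 and 183 UMIs), and without 5 cells at 1.47 and 0.734. Hmx2 was at 2.24 in Penk/Lhx1os (14 and 41 UMIs, 70.9% in 5 cells), which turned to 0.615 with 16 UMIs left, and at 0.333 in Adcyap1/Cbln1 (48 and 23 UMIs), which moved to 0.818 with 31 UMIs left. Bsx was at 1.68 in Tg/Sfrp1 (50 and 71 UMIs), or 1.83 without 5 cells, and at 0.544 in Pomc/Shisa8 (52 and 51 UMIs), which turned to 1.14 with 66 UMIs left. Nr2f2 was at 1.65 in Tg/Sfrp1 (49 and 68 UMIs), or 2.46 without 5 cells, and at 0.537 in Pthlh/Pou3f1 (144 and 61 UMIs), or 0.798. Zic1 was at 1.82 in Penk/Lhx1os, which holds it, or 1.12 without 5 cells. Its ratio of 0.649 in Nrn1/Vgll2 (67 and 33 UMIs, 92.0% in 5 cells) turned to 2.13, with 8 UMIs left.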

How the results depend on the processing

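No paired analysis was possible because each genotype has 1 library. The counts of factors called, held and sharing were within 1.5 times under most alternatives, and the others follow, with the cause not tested unless named. With the mix held fixed, the number called higher was 1 at 200 UMIs or more, 0 after thinning to 8000 UMIs and 1 without the 5 cells with most UMIs, and the number called lower was 1 without those cells and 1 with the cells of the 2 matrices. In all neuron-like cells the number called lower was 0 after thinning, which leaves fewer UMIs. Meis2 reversed without its 5 highest cells, to 0.628 and, with the mix held fixed, 0.594. With the expected number summed within clusters, 0 pairs shared and 15 avoided, among pairs with at least 5 expected cells by that sum. The ceiling on this ratio given above limits the sharing count. Called pairs within clusters numbered 72 at 20 UMIs, 13 at 200 UMIs and 23 without the 5 highest cells. Depth limits Meis2, Lhx9 and Onecut3 most, with 93, 202 and 268 UMIs in neuron-like cells. Of the 512 alternative ratios of single factors, 40 moved beyond their counting interval and 2 reversed.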

Other observations

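At 8000 UMIs per cell, the median neuron-like cell had a UMI of 4 of the 32 factors in each library (mean 4.42 in control and 4.29 in dHet). Pthlh/Pou3f1 cells had the most, with a median of 6 in both libraries, and Nrn1/Vgll2 cells had a median of 3 in both. For 26 factors the same cluster had the highest CPM in both libraries. It differed for 6: Prdm12, Hmx2, Nr2f1, Meis2, Onecut2 and Bcl11a. For Prdm12 it was Nfib/Slc17a8 in control (41.0 CPM) and Pomc/Shisa8 in dHet (44.3 CPM).

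Outside neurons, Nkx2-1 was at 108 CPM in tanycyte-like cells, Nr2f2 at 140 CPM and Foxb1 at 53.7 CPM in astrocyte-like cells, and Onecut2 at 86.5 CPM in oligodendrocyte-like cells, from 107 UMIs, with a UMI in 6 of 66 cells (9.09%) after thinning to 4000 UMIs. Foxb1 had a UMI in 23.9% of astrocyte-like and 1.59% of the deeper neuron-like cells. Meis2 had its highest CPM, 27.5, in oligodendrocyte precursor-like cells.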
